A study of Mus musculus with 15 samples.

Results

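Among 15 mouse thoracic aorta libraries, 5 carried at least 10 CPM (a gene's count scaled by the total count of its library) of Dbh, and 10 carried under 5 CPM. Dbh encodes dopamine beta-hydroxylase, the enzyme that makes noradrenaline from dopamine. The 5 high libraries, 33.3% of the series, were celecoxib 4, rofecoxib 5, vehicle 4, rofecoxib 3 and celecoxib 2, and the other 10, 66.7%, formed the low group. The libraries were thus chosen by their Dbh CPM alone, and no library lay between the thresholds. The libraries nearest to them were celecoxib 2, at 23.5 CPM, and vehicle 5, at 4.26 CPM. Because the groups were cut from a measured value of the same libraries, differences between them are given as descriptions and carry no p-value.

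The study gave adult male wildtype C57BL/6 mice, aged 10 to 12 weeks and kept under 12 h of light and 12 h of dark, a 100 uL gavage of polyethylene glycol vehicle alone or with an inhibitor selective for cyclooxygenase-2. Celecoxib was dosed at 30 mg/kg and rofecoxib at 10 mg/kg, and aortas were taken 6 h later, at Zeitgeber hour 11. Each treatment had 5 polyadenylated RNA libraries, and no animal carried a genetic alteration. The labels do not say that each library came from a separate mouse, so p-values measure the spread between these samples, which may be technical. Libraries were built over 3 days, with no day named for any of them, so no batch term could be fitted.

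Postganglionic sympathetic neurons have their cell bodies in ganglia beside the spine and send axons to the outer coat of arteries, where they release noradrenaline, neuropeptide Y and adenosine triphosphate onto smooth muscle. They make noradrenaline from tyrosine through tyrosine hydroxylase, aromatic amino acid decarboxylase and dopamine beta-hydroxylase, package it with a vesicular transporter, and recover it with the noradrenaline transporter. Their identity is set during development by homeodomain factors such as Phox2a and by Hand and Gata factors. They are driven by acetylcholine acting on nicotinic receptors. Satellite glia wrap their cell bodies and Schwann cells wrap their axons.

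The upstream stretches of 4 genes that separated the groups are shown, because homeodomain factors bind sites with a TAAT core and the cyclic AMP response element TGACGTCA is known from the Th promoter. Each holds the 250 bases before the RefSeq start in GRCm38.p6, printed 5′ to 3′ on the gene's own strand, with capitals marking TGACGTCA or the letters TAAT read on either strand (ATTA where the match lies on the other strand). The Dbh stretch lies at chr2:27165257-27165506 on the plus strand, that of Th at chr7:142899996-142900245 on the minus strand, that of Npy at chr6:49822460-49822709 on the plus strand and that of Chrna3 at chr9:55026563-55026812 on the minus strand.
Dbh: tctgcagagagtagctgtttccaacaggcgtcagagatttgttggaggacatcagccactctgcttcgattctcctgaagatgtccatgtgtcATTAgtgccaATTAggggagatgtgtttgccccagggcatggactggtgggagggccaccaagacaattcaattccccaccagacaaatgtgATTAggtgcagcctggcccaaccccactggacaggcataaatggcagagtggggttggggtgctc
Th: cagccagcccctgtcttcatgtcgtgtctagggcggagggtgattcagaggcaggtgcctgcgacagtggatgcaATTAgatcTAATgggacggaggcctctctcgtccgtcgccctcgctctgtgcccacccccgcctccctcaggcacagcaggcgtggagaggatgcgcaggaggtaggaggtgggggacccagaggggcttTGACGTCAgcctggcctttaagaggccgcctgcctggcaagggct
Npy: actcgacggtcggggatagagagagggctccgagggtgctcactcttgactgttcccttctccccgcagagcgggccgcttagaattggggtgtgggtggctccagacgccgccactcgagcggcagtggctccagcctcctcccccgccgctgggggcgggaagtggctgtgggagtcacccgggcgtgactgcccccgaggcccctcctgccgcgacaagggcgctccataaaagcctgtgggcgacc
Chrna3: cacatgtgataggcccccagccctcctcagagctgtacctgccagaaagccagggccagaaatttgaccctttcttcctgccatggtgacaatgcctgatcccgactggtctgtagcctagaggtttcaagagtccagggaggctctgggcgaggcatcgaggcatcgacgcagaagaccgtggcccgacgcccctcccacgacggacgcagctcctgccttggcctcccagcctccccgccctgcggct
Th held TGACGTCA from 45 bases before its start and TAAT letters from 175 and 167 bases before it. Dbh held TAAT letters from 157, 147 and 65 bases before its start and no TGACGTCA. The printed stretches of Npy and Chrna3 held neither. Over windows from 250 bases before to 50 after the start, TGACGTCA stood in 1.79% of 32851 promoters in the RefSeq table, and in 6.23% of the 289 promoters matched to 210 of the genes counted as apart below. TAAT stood in 58.0% of all promoters and 38.8% of those 289, and the E-box CANNTG in 72.3% and 69.6%. Matches on both strands were counted. They describe letters in a window and do not show binding.

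Dbh itself, on chromosome 2 from 27020551 to 27038922 in mm9, stood at 160.2 CPM in celecoxib 4, 96.7 in rofecoxib 5, 64.3 in vehicle 4, 46.3 in rofecoxib 3 and 23.5 in celecoxib 2. Among the low libraries it reached 4.26 CPM in vehicle 5, 2.45 in vehicle 3 and 1.2 in vehicle 2, and lay under 1 CPM in 7. Celecoxib 1, rofecoxib 2 and vehicle 1 had 0 counts, which allows up to 3 counts in each. The depth was even across libraries, from 30937046 to 30967115, so 0.0323 CPM was a single count. In bulk RNA such as this, a smaller number of cells of a type and less RNA per cell cannot be told apart.

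Over the 14263 other genes with a mean of at least 0.5 CPM, the median log2 fold change, high minus low, was -0.01. A gene was counted as apart where its fold was at least 2 and no high library overlapped a low one in CPM. By that count 295 genes stood higher in the high group, 2.07% of those measured, and 0 stood lower. Whatever the fold, 355 genes, 2.49%, did not overlap on the higher side and 3 on the lower. Of the 295 genes, 150 differed by at least 8-fold and 77 by at least 32-fold, with a median log2 fold change of 3.01. The filter bears on this count: 162 of the 295 genes averaged under 0.5 CPM in the low group, passed through their level in the high group, and so had to differ. Leaving out vehicle 5, the low library with the most Dbh, kept 294 of the 295 genes apart and changed the fold of 23 of them by over 1.5 times. Leaving out celecoxib 4 kept 284 apart and changed the fold of 11 by that much, and leaving out vehicle 3 that of 1.

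**Figure D1:**
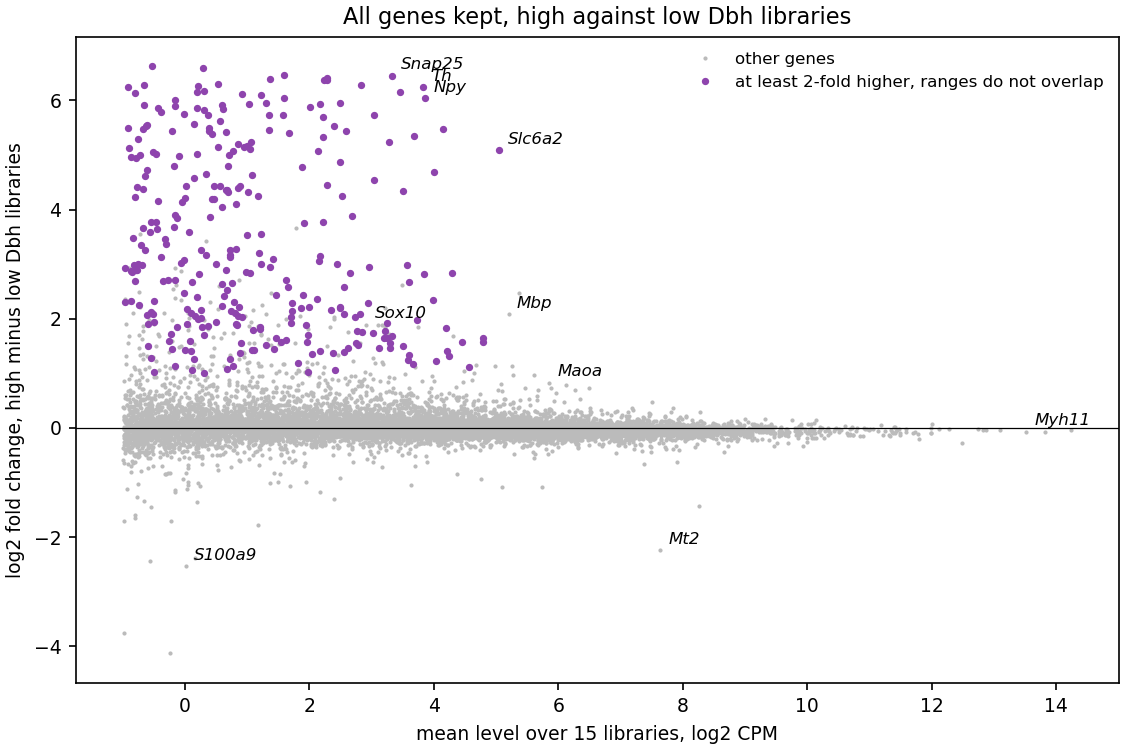
Log2 fold change, high minus low Dbh libraries, of every gene kept (vertical axis) against its mean log2 CPM over 15 libraries (horizontal axis). Purple points are the genes apart between the groups, all on the positive side, while abundant genes such as Myh11 lie near 0 and S100a9 and Mt2 on the negative side overlap between groups.

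Genes of noradrenaline synthesis, packing and recovery separated the high libraries from the low ones at 4 points of the pathway. Th, tyrosine hydroxylase, the rate-limiting enzyme (chromosome 7, 150078455 to 150117235 in mm9), stood at 88.1 CPM in celecoxib 4, 53.3 in rofecoxib 5, 32.9 in vehicle 4, 23.1 in rofecoxib 3 and 9.43 in celecoxib 2. In the 10 low libraries it ranged from 0 to 2.52 CPM, with a median of 0.226, and vehicle 5 held the highest value. Every high library lay above every low one, and the libraries of the high group followed the order of Dbh. The log2 fold change of Th was 6.24 ± 0.64 (SE), or 75.5-fold, and without vehicle 5 the fold was 128.

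Slc6a2, the transporter that takes noradrenaline back into the nerve ending (chromosome 8, 95483776 to 95525768 in mm9), stood at 183 CPM in celecoxib 4, 109.9 in rofecoxib 5, 83.6 in vehicle 4, 64.8 in rofecoxib 3 and 27.9 in celecoxib 2. Its low libraries ranged from 0.388 to 5.94 CPM, with a median of 2.63, again with vehicle 5 highest, and the log2 fold change was 5.10 ± 0.45. Unlike Dbh, it had counts in every low library. Ddc, which turns L-DOPA into dopamine, stood at 55.5 CPM in celecoxib 4, 33.7 in rofecoxib 5, 23 in vehicle 4, 18.9 in rofecoxib 3 and 7.3 in celecoxib 2, against 0.323 to 1.55 CPM in the low group, a log2 fold change of 5.24 ± 0.39. Slc18a2, the vesicular monoamine transporter, differed less, by 2.81 ± 0.27 on the log2 scale, with 12.7 to 65.7 CPM in the high group and a floor of 2.91 CPM in the low group.

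The other listed genes of this pathway were not apart. Of the 13 listed, 11 passed the filter on low values, 4 were apart, and the median log2 fold change was 0.83. Over all genes 2.07% were apart, a share that stands beside this count and those of the lists below. Maoa, a monoamine oxidase that breaks noradrenaline down and is made by many cells, did not overlap either, at 58.2 to 124 CPM in the high group and 38.3 to 49.5 in the low group, but differed by only 0.83 ± 0.12 on the log2 scale. Spr and Qdpr, which make and recycle the tetrahydrobiopterin cofactor of Th, differed by 0.03 ± 0.06 and 0.14 ± 0.07, while Gch1, the first enzyme of cofactor synthesis, was higher by 1.51 ± 0.27 with overlapping groups. Cyb561, a cytochrome of catecholamine vesicles that also occurs in other tissues, differed by 0.04 ± 0.30. Its levels were 134 to 226 CPM in the high group, with a median of 178. In the low group they were 104 to 414 CPM, with a median of 129.

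**Figure D2:**
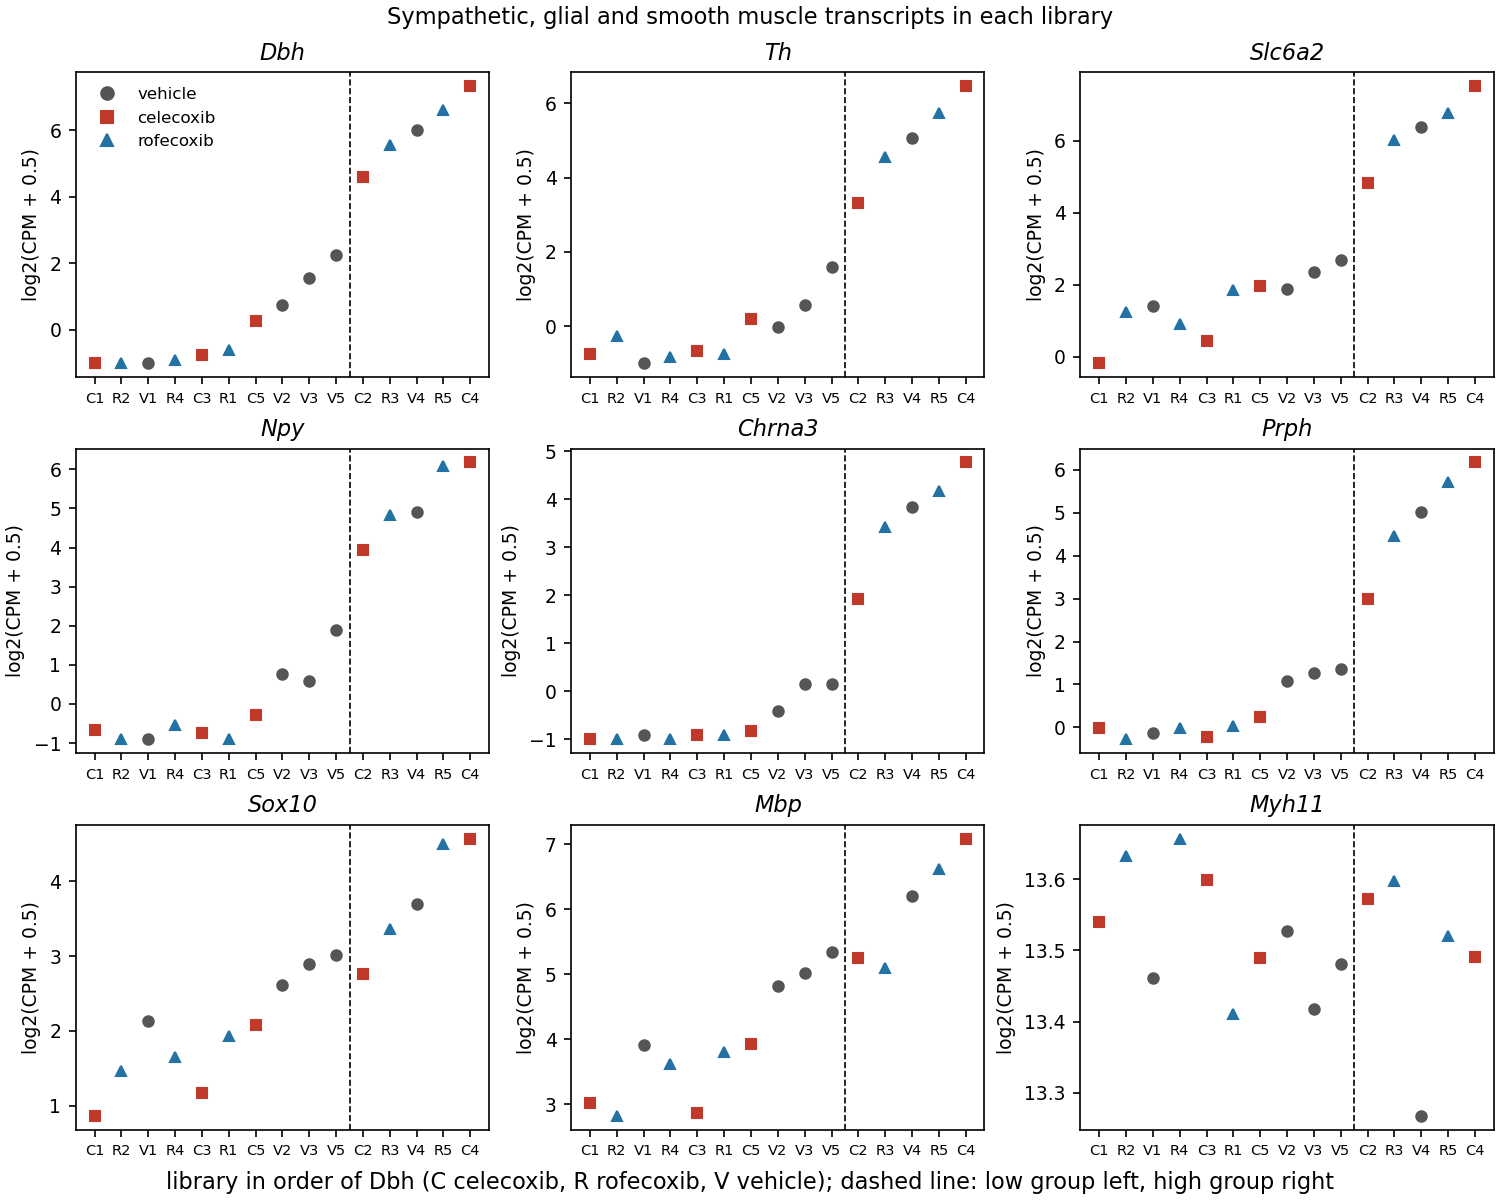
Level of 9 genes, as log2(CPM + 0.5), in each of 15 libraries ordered by Dbh, with the low group left and the high group right of the dashed line and a separate vertical scale per gene. The neuronal genes step up across the line, Mbp of Schwann cells runs on from vehicle 2, vehicle 3 and vehicle 5, and Myh11 of smooth muscle varies within a narrow range in both groups.

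The transcription factors that define sympathetic neurons stood higher in the same libraries. Phox2a reached 7.6 CPM in celecoxib 4 and 0.517 in celecoxib 2, while the 10 low libraries held 10 counts of it in all. Hand1 had 655 counts over the 5 high libraries and 15 over the 10 low ones. With so few low counts the fitted folds of Phox2a and Hand1 (6.59 ± 0.59 and 6.30 ± 0.65 on the log2 scale) rest on single reads, and without vehicle 5 that of Hand1 was 7.15. Hand2, which keeps adult sympathetic neurons noradrenergic, stood at 18.5 CPM in celecoxib 4, 14.3 in rofecoxib 5, 11.6 in vehicle 4, 6.62 in rofecoxib 3 and 3.1 in celecoxib 2. Its low libraries ranged from 0.582 to 2.68 CPM, with a median of 1.03.

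Of 15 listed factors 13 had a row used here, 9 passed the filter, and 6 were apart, among them Phox2a, Hand1, Hand2, Tlx2 and Eya1, with a median log2 fold change of 3.06. Gata2, which endothelial cells also express, Gata3 and Isl1 overlapped between groups at 0.73 ± 0.16, 0.70 ± 0.33 and 1.51 ± 0.31 on the log2 scale.

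Npy, the vasoconstrictor peptide that these neurons release beside noradrenaline (chromosome 6, 49772507 to 49779708 in mm9), stood at 71.9 CPM in celecoxib 4, 67.1 in rofecoxib 5, 29.7 in vehicle 4, 28 in rofecoxib 3 and 14.7 in celecoxib 2. Rofecoxib 5 lay close to celecoxib 4 for this gene, although its Dbh was lower. The low libraries ranged from 0.0323 to 3.23 CPM, with a median of 0.162. Vehicle 5 was the highest of them, and the fold of 65.6 became 120.9 without that library. The granins, which help form dense-core vesicles, stood apart as well: Chgb by 4.45 ± 0.38, Chga by 4.32 ± 0.39 and Scg2 by 5.08 ± 0.49 on the log2 scale. Pcsk1n, an inhibitor of a peptide-processing enzyme, ranged from 1.71 to 24.5 CPM in the high group and 0.0646 to 0.646 in the low group. In this list of 19 genes 12 passed the filter, 9 were apart, and the median log2 fold change was 4.38. Cpe, a carboxypeptidase that many secretory cells make, did not follow, at 2510.1 to 2684 CPM in the high group and 2553 to 2909 in the low group. The opioid precursor gene Penk differed by 0.52 ± 0.25 with overlapping groups. Gal, the galanin gene, was under the filter, with 153 counts over the high libraries and 25 over the low ones, and Vip had 31 and 30.

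Structural genes of neurons stood higher in the same 5 libraries. Tubb3, neuronal beta-tubulin, stood at 96.6 CPM in celecoxib 4, 67.4 in rofecoxib 5, 42.8 in vehicle 4, 33.7 in rofecoxib 3 and 12.7 in celecoxib 2, against 0.484 to 3.0 CPM in the low group. Prph, the intermediate filament peripherin of peripheral neurons, stood at 71.6 CPM in celecoxib 4, 51.9 in rofecoxib 5, 31.8 in vehicle 4, 21.6 in rofecoxib 3 and 7.4 in celecoxib 2, against 0.323 to 2.07. Both genes kept the order of Dbh in the high group and had counts in every low library. Their log2 fold changes were 5.48 ± 0.45 and 5.34 ± 0.49, and those of the neurofilament genes Nefl and Nefm were 5.69 ± 0.52 and 5.32 ± 0.60 (6.0 for Nefm without vehicle 5). All 21 listed genes with a row used here passed the filter, 16 were apart, and the median log2 fold change was 4.43. Some, such as Ina, Nefl, Nefm and Elavl2, averaged under 0.5 CPM in the low group and passed through the high group. Genes with over 15 CPM in every low library differed less: Dpysl3 by 0.07 ± 0.12, Uchl1 by 0.79 ± 0.15 and Sncg by 1.13 ± 0.18. Stmn2, a tubulin-binding protein of growing axons, had 3.68 to 8.46 CPM in the low group and 17.1 to 80.7 in the high group.

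Genes of transmitter release split in the same way. Snap25, the membrane protein of the nerve-ending fusion complex, stood at 67.1 CPM in celecoxib 4, 34.1 in rofecoxib 5, 22.5 in vehicle 4, 17.6 in rofecoxib 3 and 6.62 in celecoxib 2, against 0 to 1.58 CPM in the low group. Syt1, its calcium sensor, differed by 6.15 ± 0.60, the vesicle trafficking gene Rab3c by 6.40 ± 0.59 and Syt4 by 5.73 ± 0.47 on the log2 scale. Without vehicle 5 the value of Syt1 was 6.77 and that of Snap25, 6.46 over all libraries, was 7.24. Vamp2, Stx1a and Sv2a, fusion and vesicle genes with over 25 CPM in every low library, differed by 0.10 ± 0.05, 0.11 ± 0.08 and 0.14 ± 0.11. Cplx2, complexin 2, lay between these, with 26 to 81.6 CPM in the high group and 13.8 to 19 in the low group. Of 21 listed genes 19 passed the filter, 10 were apart and the median log2 fold change was 1.99.

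Several receptors and channels through which ganglion neurons receive signals were higher in the 5 high libraries. Chrna3, a subunit of the ganglionic nicotinic acetylcholine receptor, stood at 26.7 CPM in celecoxib 4, 17.5 in rofecoxib 5, 13.9 in vehicle 4, 10.1 in rofecoxib 3 and 3.29 in celecoxib 2. The low libraries ranged from 0 to 0.614 CPM, with a median of 0.0323, and vehicle 5 and vehicle 3 both stood at 0.614. Its partner subunit Chrnb4, the neighbouring gene on chromosome 9, differed by 6.10 ± 0.54 on the log2 scale against 6.38 ± 0.63 for Chrna3. Ngfr, a low-affinity receptor for neurotrophins, stood at 65.6 CPM in celecoxib 4, 70.4 in rofecoxib 5, 46 in vehicle 4, 30.2 in rofecoxib 3 and 10.4 in celecoxib 2, against 0.258 to 4.07, so that rofecoxib 5 and not celecoxib 4 was its highest library.

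The serotonin receptor channel subunits Htr3a and Htr3b differed by 5.43 ± 0.71 and 5.93 ± 0.74, the sodium channel Scn9a by 6.17 ± 0.60, and the glial-derived growth factor receptor Ret by 2.29 ± 0.31 on the log2 scale. Without vehicle 5 these values were 6.27 for Htr3a, 8.04 for Htr3b and 6.75 for Scn9a. Ntrk3, the receptor for neurotrophin 3, differed by 0.02 ± 0.07 and ranged from 132 to 147 CPM in the high group and 98.1 to 162 in the low group. The sodium channel Scn2a1 differed by -0.02 ± 0.09. Of 27 listed genes 21 passed the filter, 11 were apart and the median log2 fold change was 2.29.

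Across the 25 genes of largest difference with a mean of at least 1 CPM, log2 fold changes ran from 5.86 for Fam163a to 6.59 for Phox2a. Beside the members described, they held Slc7a14 (6.47 ± 0.63), Rit2, a small GTPase of neurons (6.39 ± 0.58), Sult4a1, a sulfotransferase-like protein of neurons (6.38 ± 0.62), Cckar, a receptor for cholecystokinin (6.27 ± 0.63), Ina, the filament internexin (6.16 ± 0.60), and the RNA-binding genes Celf6 (6.11 ± 0.70) and Elavl2 (5.95 ± 0.59). Slc10a4, a transporter of monoaminergic and cholinergic vesicles, differed by 6.05 ± 0.58. Nsg2, Pirt and Dpp6 differed by 5.96 ± 0.62, 5.93 ± 0.62 and 5.91 ± 0.63. All of the 25 but Th and Npy averaged under 0.5 CPM in the low group. Those genes passed the filter through the high group and so had to differ. Low-group means of Cckar, Ina, Scn9a and Fam163a were 0.039, 0.042, 0.045 and 0.052 CPM, so their folds rest on few reads. Folds of 9 genes named here moved by over 1.5 times when 1 library was left out. With vehicle 5 left out, values became 7.31 for Slc7a14, 6.99 for Rit2, 7.16 for Sult4a1, 7.08 for Celf6, 6.89 for Slc10a4, 6.9 for Nsg2 and 6.55 for Pirt. Without vehicle 3 that of Dpp6 was 6.62, and without celecoxib 4 that of Cckar was 5.49.

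The 10 genes most like Dbh were taken by Pearson correlation of log2(CPM + 0.5) over the 15 libraries. They were Npy (0.994), Syt1 (0.993), Th (0.991), Pirt (0.991), Nefm (0.991), Nefl (0.989), Htr3a (0.989), Syt4 (0.988), Prph (0.988) and Snap25 (0.987). These values describe 15 points that fall into the 2 groups and share their libraries. Within the high group, levels scaled with Dbh to different degrees. The slope on Dbh over those 5 libraries, both as log2(CPM + 0.5), was 1.15 for Th, 0.95 for Slc6a2 and 0.87 for Npy. It was 0.81 for Slc18a2, 0.71 for the glial gene Sox10 and 0.38 for Maoa. For an abundant gene, a slope of 1 means that it changed in proportion to Dbh. The added 0.5 CPM lowers the slope of genes with few counts, and 77 of the 295 genes apart averaged under 1 CPM. Over the 295 genes apart the median slope was 0.71, with quartiles of 0.55 and 0.86, against 0.01 over all genes. Fat lists also had positive median slopes over these 5 libraries, 0.79 for brown adipocyte genes and 0.39 for white and general adipocyte genes. Yet 0 of their kept genes were apart, and 0 kept the order of Dbh. The brown adipocyte list summed to 285 CPM in celecoxib 2, 688 in rofecoxib 3, 1112 in vehicle 4, 483 in rofecoxib 5 and 815 in celecoxib 4. The part of fat in the slopes was not tested. Among the high libraries celecoxib 4 was highest for 274 of the 295 genes, 92.9% against 16.5% of all genes, and rofecoxib 5 for 21, 7.12% against 20%.

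**Figure D3:**
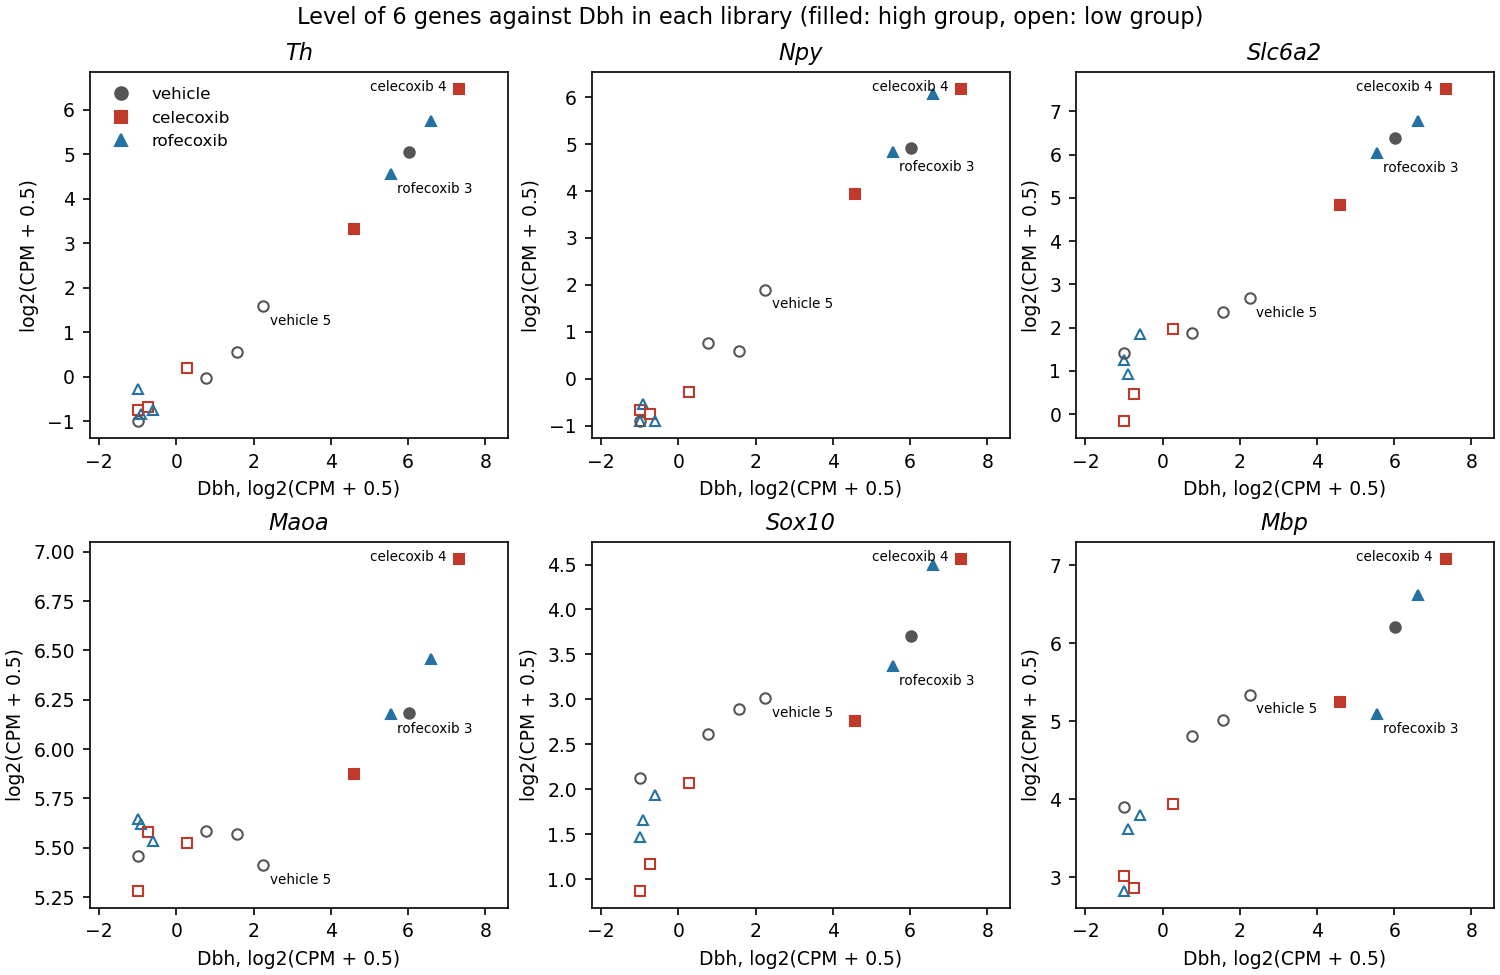
Level of 6 genes against Dbh in each library, both as log2(CPM + 0.5), with filled symbols for the high group and open symbols for the low group and a separate vertical scale per gene. Th, Npy and Slc6a2 track Dbh within the high group, Maoa is level across the low group, and Mbp in vehicle 5 lies above rofecoxib 3.

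Of 22 glial genes of peripheral nerve that passed the filter, 21 had positive log2 fold changes and 6 were apart. Over all other genes 6368 of 14263 had positive values. Mbp, a structural protein of myelin, stood at 135 CPM in celecoxib 4, 97.5 in rofecoxib 5, 73.5 in vehicle 4, 33.6 in rofecoxib 3 and 37.4 in celecoxib 2. In the low group it was 40 CPM in vehicle 5, 32 in vehicle 3 and 27.6 in vehicle 2, and 6.56 to 14.8 in the other libraries. Rofecoxib 3 and celecoxib 2, in the high group, therefore lay below vehicle 5, and the log2 fold change was 2.08 ± 0.43.

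Sox10, the transcription factor of neural crest glia, stood at 23.2 CPM in celecoxib 4, 22 in rofecoxib 5, 12.5 in vehicle 4, 9.82 in rofecoxib 3 and 6.3 in celecoxib 2, against 1.32 to 7.59 CPM in the low group, a log2 fold change of 1.89 ± 0.37. Vehicle 5 and vehicle 3 lay above celecoxib 2 for this gene. Fabp7, a fatty acid carrier known from satellite glia, differed more than Mbp, by 3.13 ± 0.44, at 0.807 to 3.72 CPM in the high group and 0.0323 to 0.646 in the low group, which did not overlap. Pmp22, a myelin gene that fibroblasts also express, and Gldn, the gene of gliomedin, differed by 0.21 ± 0.08 and -0.08 ± 0.10. The 22 glial genes, of 24 listed, had a median log2 fold change of 1.75, above that of the noradrenaline list and below those of the other 5 neuronal lists. For each gene, the mean CPM of the low group was taken as a percentage of the mean of the high group. The median of these percentages over the 22 glial genes was 29.1%. The same median was 4.42% for the neuronal cytoskeleton list, 4.64% for neuropeptides and granins and 11.7% for the transcription factors. It was 20% for ganglionic receptors and channels, 24.7% for synaptic genes and 54.9% for the noradrenaline list, so the glial value lay within the range of the neuronal lists. The part of nerve glia in the other differences was not tested.

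**Figure D4:**
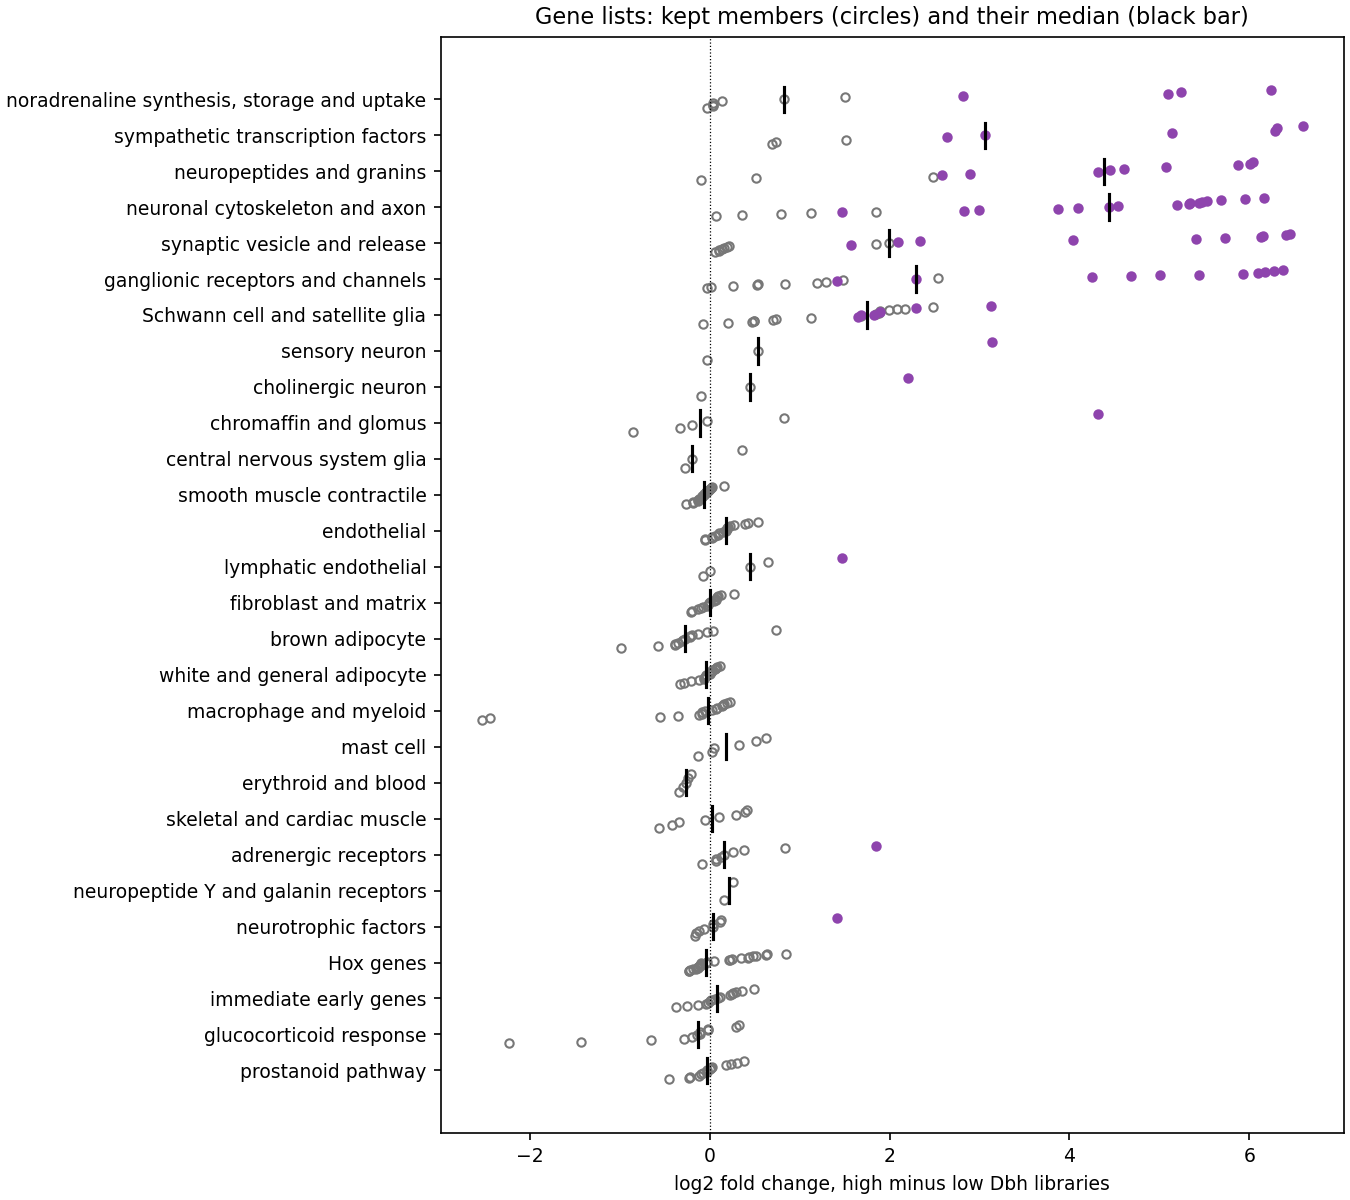
Log2 fold change, high minus low Dbh libraries, of the members that passed the filter (circles) in 28 lists, with the list median as a black bar and filled purple circles for genes apart between the groups. Neuronal and glial lists reach to the right, and smooth muscle, endothelial, fibroblast and white adipocyte lists lie near 0. Brown adipocyte genes spread from -0.98 to 0.73, with a median of -0.27.

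Markers of other neurons and of related secretory cells were examined beside these. Of 14 listed sensory genes 3 passed the filter. Avil, which sympathetic as well as sensory neurons express, was apart at 3.14 ± 0.31, while Ntrk2 and Trpv1 differed by -0.03 ± 0.15 and 0.54 ± 0.23. Calca, the precursor of calcitonin gene-related peptide, had 23 counts over the 5 high libraries and 57 over the 10 low ones, and the substance P precursor Tac1 had 8 and 12. Chat, the acetylcholine-synthesizing enzyme, was at 0 counts in all 15 libraries, which allows up to 3 counts a library, and the choline transporter Slc5a7 had 9 and 3 counts. Defining markers of sensory and cholinergic neurons were thus at or near 0 in both groups. Ache, the enzyme that splits acetylcholine, was apart at 2.21 ± 0.25. Pnmt, which makes adrenaline from noradrenaline in chromaffin cells, was at 0.259 to 1.13 CPM in the high group and 0.258 to 2.58 in the low group, with a log2 fold change of -0.85 ± 0.56. The vesicular transporter of chromaffin cells, Slc18a1, reached 2.55 CPM in celecoxib 4 and stayed under the filter. Of the 9 adrenal cortex genes 1 passed, Star, at -0.05 ± 0.09.

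Genes of the vessel wall had log2 fold changes near 0. Acta2 and Myh11, contractile proteins of smooth muscle, were abundant in every library, at 14679 to 22896 and 9863 to 12913 CPM over all 15 libraries. Their log2 fold changes were -0.03 ± 0.09 and -0.06 ± 0.07. The smooth muscle list summed to 63936 to 72800 CPM in the high group and 61607 to 78663 in the low group, and 0 of its 20 members were apart. The endothelial list had a median of 0.18 and the fibroblast and matrix list 0.00, with 0 of 18 and 0 of 16 apart. With 2.07% of all genes apart, a count of 0 in lists of this size is near the background, here and in the lists below. The log2 fold changes ran from -0.26 to 0.16 in the smooth muscle list, from -0.05 to 0.53 in the endothelial list and from -0.20 to 0.27 in the fibroblast and matrix list.

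Fat around the aorta varied between libraries within both groups. The brown adipocyte list summed to 285 to 1112 CPM in the high group and 349 to 1968 in the low group, with a median log2 fold change of -0.27. Its 15 kept members ran from -0.98 to 0.73, and 2 of them were positive. Ucp1, the uncoupling protein of brown fat, ranged from 6.65 to 452 CPM in the high group and 37.7 to 980.1 in the low group, where vehicle 5 was highest. Celecoxib 2 held the least brown fat transcript of all libraries, at 285 CPM. White and general adipocyte genes summed to 2099 to 7059 CPM in the high group and 2819 to 7202 in the low group, and Fabp4 differed by 0.00 ± 0.31. The macrophage list had a median of -0.01. Of 15, 17 and 16 kept members of these lists, 0 were apart. The part of fat in the differences between groups was not tested.

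Of 9 adrenergic receptor genes 8 had positive log2 fold changes, with a median of 0.16. Over all other genes 6368 of 14263 were positive, and in the endothelial list 16 of 18 were. Adra1d, the main alpha-1 receptor of the aorta, differed by -0.08 ± 0.09 and the fat receptor Adrb3 by 0.12 ± 0.34. Adra2c, an alpha-2 receptor that sympathetic nerve endings also carry, differed by 0.84 ± 0.23 with overlapping groups. Adra2b was the 1 gene apart, at 1.68 to 3.65 CPM in the high group and 0.0969 to 1.52 in the low group, with rofecoxib 5 rather than celecoxib 4 highest. Npy1r, the vascular receptor for neuropeptide Y, differed by 0.17 ± 0.19. Among 9 kept genes for neurotrophic and guidance factors, Ntf3 differed by -0.06 ± 0.10, Bdnf by -0.11 ± 0.14 and Sema3c by -0.16 ± 0.09, and Edn3 was the 1 gene apart, at 1.42 ± 0.22.

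Position and acute state were compared through 3 further lists. Of 27 kept Hox genes, which mark the level of the body axis, 0 were apart, with a median of -0.04 and a range from -0.23 to 0.85. Hoxa3, Hoxb4 and Hoxa7 differed by -0.13 ± 0.10, -0.09 ± 0.09 and -0.13 ± 0.09. Of 16 immediate early genes 0 were apart, and Egr1 and Nr4a1 differed by -0.02 ± 0.24 and 0.36 ± 0.31. Of 15 kept prostanoid genes 0 were apart, and Ptgs2, which encodes cyclooxygenase-2, was at 27.3 to 43.8 CPM in the high group and 18.1 to 90.5 in the low group.

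Genes lower in the high libraries overlapped in every case of at least 2-fold. There were 30 such genes, against 457 higher by at least 2-fold with or without overlap. S100a9, a neutrophil protein, differed by -2.53 ± 0.81, at 0.0323 to 0.453 CPM in the high group and 0.0646 to 5.81 in the low group. The metallothioneins Mt2 and Mt1 differed by -2.23 ± 1.10 and -1.43 ± 0.81, and celecoxib 1 alone held 1802 CPM of Mt2 and 2163 of Mt1. The median of Mt2 was 68 CPM in the high group and 39.9 in the low group, so the medians and the fitted value differ in sign. Marco, a macrophage scavenger receptor, had the most negative value, -4.13 ± 2.05, with at most 0.162 CPM in the high group and up to 11.8 in 1 low library. On the lower side 3 genes did not overlap, all at folds under 2: Kpna6, an importin, at -0.12 ± 0.04, and 2 predicted genes.

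High libraries came from every treatment: 2 of 5 celecoxib, 2 of 5 rofecoxib and 1 of 5 vehicle libraries. Fisher's exact test of this table, two-sided, gave p = 1. Mean log2(CPM + 0.5) of Dbh was 2.09 ± 3.69 (SD, n = 5) in celecoxib, 1.93 ± 3.81 in rofecoxib and 1.92 ± 2.59 in vehicle. Exact two-sided permutation tests gave p = 0.952 for celecoxib minus vehicle, p = 1 for rofecoxib minus vehicle and p = 0.913 for celecoxib minus rofecoxib, each with an adjusted p = 1 over the 3 comparisons. The smallest p these tests allow is 0.00794. The spread within each treatment was larger than any difference between treatments. Celecoxib 4 and vehicle 4 each stood far above the remaining libraries of their own treatment, and the sign of these differences depends on single libraries.

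Differences were also computed inside each treatment, which compares 2 high with 3 low libraries for celecoxib and for rofecoxib and 1 high with 4 low libraries for vehicle. The log2 fold change of Th was 7.33 within celecoxib, 7.81 within rofecoxib and 5.02 within vehicle. That of Slc6a2 was 6.05 within celecoxib, 5.32 within rofecoxib and 4.37 within vehicle, that of Ddc 5.73 within celecoxib, 5.53 within rofecoxib and 4.59 within vehicle, and that of Sox10 2.67 within celecoxib, 2.5 within rofecoxib and 1.04 within vehicle. The vehicle values are the smallest of the 3 for each of these genes, and the vehicle low group holds vehicle 5, vehicle 3 and vehicle 2, the low libraries with the most Dbh. Myh11 differed by -0.05 within celecoxib, -0.05 within rofecoxib and -0.22 within vehicle.

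Treatment itself was tested with edgeR's quasi-likelihood test over 14264 genes, with Benjamini-Hochberg adjustment. Celecoxib minus vehicle, rofecoxib minus vehicle and celecoxib minus rofecoxib each called 0 genes, 0% of those tested, with smallest adjusted p = 0.142, 0.918 and 0.531. At an unadjusted p under 0.05 they held 1853, 740 and 1010 genes. Both comparisons with vehicle share its libraries. DESeq2 called 126, 0 and 20 genes, or 0.978%, 0% and 0.14% of those it tested, and 0 of the 295 genes apart were among them. At such shares a count of 0 is near the background. Of 93 kept genes in the first 6 neuronal lists, 3, 0 and 2 had an unadjusted p under 0.05 in edgeR, or 3.23%, 0% and 2.15%, against 13.0%, 5.19% and 7.08% of all genes. For Dbh the log2 fold change of celecoxib minus vehicle was 1.38, with a 95% interval from -2.30 to 5.05, and for Th it was 1.44, with a 95% interval from -2.13 to 5.01. For rofecoxib minus vehicle the value of Dbh was 1.0, with a 95% interval from -2.66 to 4.65, and that of Th 1.07, with a 95% interval from -2.48 to 4.62. For celecoxib minus rofecoxib that of Dbh was 0.38, with a 95% interval from -3.20 to 3.97. These intervals include changes of several-fold in either direction. With the high or low group as a covariate, edgeR again called 0 genes in each comparison, and 2309, 873 and 1099 had an unadjusted p under 0.05.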

How the data were processed

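Thoracic aorta RNA was measured in 15 libraries, 5 per treatment. The submitters' processing notes name CASAVA 1.8.2, STAR 2.5.2a and genome build mm9. Counting, strand setting and gene annotation were not given in the sources used here. Genes that overlap, have antisense partners or share near-identical copies are thus uncertain. The authors deposited whole-number counts for 37681 gene rows. Library totals lay within 0.0971% of each other, closer than raw libraries usually lie. No rescaling is recorded, and the depth before any is unknown. All 37 mitochondrial rows held 0 counts.

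Rows with a mean of at least 0.5 CPM were kept (14264 rows, 99.9% of counts). Scaling used the trimmed mean of M-values (factors 0.940 to 1.04), and 1 robust quasi-likelihood fit per question was made in edgeR 4.0.16 under R 4.3.3, without covariates. The high-against-low fit gave log2 fold changes and standard errors only; overlap used CPM from library totals. Treatment contrasts were adjusted by the Benjamini-Hochberg method at a threshold of 0.05. The Dbh level by treatment was tested by exact permutation and the group by Fisher's exact test. The scripts were tested on simulated data. Libraries of a treatment differed beyond sampling noise, with a smallest chi-square per gene of 13.0 over 14602 genes. Alternatives covered scalings, filters, folds, thresholds, covariates, a replicate block, DESeq2 1.42.0, each treatment alone and leaving out each library. Promoters came from RefSeq. Figures were drawn with matplotlib 3.10.9.

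The groups, the 32 gene lists and the tests were chosen with earlier results of these data known. Named genes were the 25 with the largest positive and up to 15 with the largest negative differences among genes apart with a mean of at least 1 CPM (0 were negative), up to 6 members of each list by mean CPM, the 10 most like Dbh, and a set of markers. Predicted genes were not named, and some members of the lists are not reported here. Gch1, Gal, Vip, Calca, Tac1, Chat, Slc5a7, Slc18a1, Tlx2, Fabp7, Adra2b, Edn3, Kpna6, Marco and S100a9 were named after their values were seen. Splicing and mapped reads were not analysed here.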

Additional observations from a re-analysis of the deposited data

Results flagged for a closer look

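Within a treatment, the high group or the low group, 6 of 41 sets of values had a single library far from the rest. The gap test used is passed by chance alone in about 1 of 20 sets of normally distributed values, which CPM need not be. Dbh was 160.2 CPM in celecoxib 4, and the next celecoxib library held 23.5. Dbh was 64.3 CPM in vehicle 4, and the next vehicle library held 4.26. Vehicle 5 stood above the other low libraries for 3 genes. It held 2.52 CPM of Th against a next value of 0.969, 3.23 CPM of Npy against 1.2, and 980.1 CPM of the brown fat gene Ucp1 against 402. Among the low libraries, celecoxib 5 held 90.5 CPM of Ptgs2, against a next value of 47.1.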

How the results depend on the processing

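The count of 295 genes higher and 0 lower was 219 to 418 higher and 0 lower under the other fold limits and all but 1 of the filters. A filter at a mean of 5 CPM, which tests fewer genes, gave 65 higher. The other group cuts, from 15 CPM, at the widest Dbh gap or by Th, returned the same 5 and 10 libraries. Their 295 and 0 could not differ and test nothing further. Other scalings of the fit, treatment as a covariate and DESeq2 gave 295 to 296 higher and 0 lower. These kept the same CPM for the overlap, so only the fold limit could change the count. Rescaled CPM for the overlap gave 294 higher and 0 lower. Within celecoxib the counts were 474 higher and 36 lower, within rofecoxib 482 and 35, and within vehicle 516 and 80; with 2 or 1 high libraries, groups separate more often. Leaving out 1 library gave 284 to 407 higher (407 without celecoxib 2) and 0 to 1 lower. Leaving out vehicle 5 and celecoxib 1 together, chosen after seeing the data, gave 324 higher. The mean Dbh difference changed sign with a pseudocount of 0.1 CPM in place of 0.5: -0.12 for celecoxib minus vehicle and -0.52 for rofecoxib minus vehicle on the log2 scale. Without 1 library it ran from -1.14 to 1.19, from -1.16 to 1.04, and from -1.15 to 1.33 for celecoxib minus rofecoxib, with exact permutation p of at least 0.516. Fisher's p without 1 library was 0.451 to 1. For treatment, DESeq2 called 126 genes (33 higher, 93 lower) for celecoxib minus vehicle and 20 (16 higher, 4 lower) for celecoxib minus rofecoxib, where edgeR called 0; the cause was not tested. Leaving out 1 library gave 0 to 8 calls for celecoxib minus vehicle (8 without celecoxib 4), 0 to 1 for celecoxib minus rofecoxib and 0 for rofecoxib minus vehicle. No pairing of libraries by equal replicate numbers was seen, though these correlations cannot exclude it. Of 15 pairs, 6 had a correlation of deviations over 0.1, with r from -0.73 to 0.77. Of 15 libraries, 3 correlated best with their own number. With the replicate block, edgeR called 0 genes in each comparison, and the Dbh difference of 0.17, 0.01 and 0.16 gave exact permutation p = 1 in each. Totals that look equalised, 5 libraries a treatment and unnamed building days limit all these values.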

Other observations

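Vehicle 5 was the highest low library for 118 of the 295 genes apart, 40% of them against 15.3% of all genes measured. Vehicle 3 was highest for 56, 19% against 18.2%, and celecoxib 5 for 37, 12.5% against 10.1%, both near the share over all genes. Counts of the 295 genes together made up 0.0982% to 0.450% of the counts of the high libraries and 0.0302% to 0.0553% of those of the low libraries. Celecoxib 2, the high library with the least Dbh, was the lowest high library for 274 of the 295 genes, 92.9% against 29.7% of all genes.

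Beside nerve genes, Reln, a secreted matrix protein of lymphatic endothelium and of some neurons, was apart, at 10.3 to 21.9 CPM in the high group and 1.91 to 8.69 in the low group. The other lymphatic genes overlapped, with Lyve1 at 0.00 ± 0.25, Pdpn at -0.07 ± 0.20 and Mmrn1 at 0.65 ± 0.29 on the log2 scale. Olfr78, an olfactory receptor known from carotid body glomus cells, was highest in rofecoxib 5, at 11.6 CPM, and overlapped between groups at 0.83 ± 0.28. Mast cell genes overlapped as well, with Tpsb2 at 0.63 ± 0.34 and Kit at 0.03 ± 0.23. Hemoglobin genes had large spreads within both groups, Hbb-b1 at 18.1 to 89.6 CPM in the high group and 10 to 157 in the low group.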
